A study of Homo sapiens with 9 samples.

Results

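*ADGRL2*, *NTS* and *UPK1B* were followed through RNA-seq libraries of A549, a human lung adenocarcinoma line, made with and without an intergenic *ALK* fusion. They are 3 of 26364 rows in the count table. They were chosen by their own counts, because both libraries of *LOC388942-ALK* (*LA*) fusion cells held far fewer reads of each gene than both control libraries, so their difference between these groups is given as a description with no test. The choice had no numerical threshold. Control cells were labelled WT (n = 2 libraries). *LA* cells carried sg*LOC388942* and sg*ALK*, the CRISPR guides that made the fusion (n = 2). The sgScr cells carried the same pair of guides and a scramble guide (n = 3), and the sg*FOS* cells carried that pair and guides against *FOS*, an immediate-early transcription factor gene (n = 2). The methods state that guides were delivered by lentivirus into A549 cells expressing Cas9 and that single-cell clones were grown out. The labels do not say which clone each library came from, whether libraries were separate cultures, or which *FOS* guide was used, and no treatment or time is given. Since separate cultures are not stated, p-values measure the spread between these libraries, which may be technical. The question here was whether the sgScr and sg*FOS* cells, which also carry the fusion guides, share the low levels seen in *LA* cells.

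The 3 genes belong to unrelated systems. *ADGRL2* encodes latrophilin-2, an adhesion G protein-coupled receptor that binds teneurins and FLRT proteins on neighbouring cells and is best known from synapses and endothelium. *NTS* encodes the precursor of neurotensin and neuromedin N, secreted peptides of the gut and brain that act through the receptors NTSR1 and NTSR2 and bind the sorting receptor sortilin (*SORT1*), and some lung tumors secrete neurotensin. *UPK1B* encodes uroplakin-1b, a protein of the tetraspanin family that pairs with uroplakin-3 proteins in the plaques covering the surface of urothelium.

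On GRCh37, *ADGRL2* (ENSG00000117114) spans chr1:81771832-82459616, *NTS* (ENSG00000133636) spans chr12:86268073-86276770 and *UPK1B* (ENSG00000114638) spans chr3:118892364-118923990, all protein-coding and on the plus strand. None lies on chromosome 2, which carries the fusion. The bases before a gene's start are shown because each gene's mRNA was counted in control cells and little or not at all in *LA* cells, and whether transcription itself differed was not measured. The sequences come from a RefSeq promoter table (assembly GRCh38.p14). Each was found by its letters at a single place in GRCh37, and the coordinates are of that build, plus strand. RefSeq gave 1 start for *NTS*, 1 for *UPK1B* and 8 for *ADGRL2*, spread over 497141 bp. For *ADGRL2* the 250 bases before the outermost start (chr1:81771567-81771816) are shown, and which start A549 cells use was not measured. The bases before most of its other starts lie close together, between chr1:82265811 and chr1:82268957, far from those shown. For *UPK1B* the 169 bases before the GENCODE start (chr3:118892195-118892363) are shown, and for *NTS* the 250 bases at chr12:86267823-86268072. Capitals mark a CRE-type match and a TATA run in *NTS*.
ADGRL2: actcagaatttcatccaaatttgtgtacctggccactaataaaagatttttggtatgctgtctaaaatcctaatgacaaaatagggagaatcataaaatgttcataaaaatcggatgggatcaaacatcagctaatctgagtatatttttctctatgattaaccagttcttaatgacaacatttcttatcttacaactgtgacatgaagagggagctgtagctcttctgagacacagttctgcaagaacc
NTS: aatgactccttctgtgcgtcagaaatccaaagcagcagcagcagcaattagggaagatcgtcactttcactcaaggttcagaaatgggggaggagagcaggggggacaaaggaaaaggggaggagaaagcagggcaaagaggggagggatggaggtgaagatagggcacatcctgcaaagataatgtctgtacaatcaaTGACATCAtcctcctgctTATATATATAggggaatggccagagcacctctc
UPK1B: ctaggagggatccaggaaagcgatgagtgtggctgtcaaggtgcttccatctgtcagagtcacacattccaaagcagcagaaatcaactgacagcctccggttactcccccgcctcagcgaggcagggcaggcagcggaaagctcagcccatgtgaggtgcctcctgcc

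The letters were searched on both strands in the 250 bases before each start, over 34788 such windows in the table. The motifs were picked with these sequences in view. The AP-1 motif TGANTCA, bound by FOS and JUN dimers, was found in 6.59% of all windows and in none of the windows of *ADGRL2*, *NTS* or *UPK1B*. The CRE-type motif TGACNTCA, 1 base longer than the AP-1 motif, was found in 6.84% of all windows, among them that of *NTS*, where TGACATCA begins 51 bases before the start, and 1 of the 8 windows of *ADGRL2*. The TATA motif TATANA was found in 17.7% of all windows, again in that of *NTS* and in 1 of the 8 of *ADGRL2*. The *ADGRL2* matches lie in windows that are not printed above. The *UPK1B* window held no match. A match describes the letters, and binding was not measured.

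Total counts per library ranged from 14507228 to 20456341. *FOS*, which checks the labels, had 167 and 155 counts in control, 5448 and 1660 in *LA*, 4198, 4037 and 3528 in sgScr, and 1008 and 1113 in sg*FOS* libraries. *ALK* had 0 counts in both controls, 2 and 15 in *LA*, 1 to 4 in sgScr, and 2 and 0 in sg*FOS*. The *ALK* counts of sgScr and sg*FOS* libraries are thus at or near the limit of 3 that a count of 0 allows, and they do not tell these libraries from control. The same holds for *LA* replicate 1, with 2 counts, and only *LA* replicate 2, with 15, was well above the limit. All 6 epithelial markers (such as *EPCAM*, *KRT8* and *CDH1*) had more than 3 counts in every group's libraries. The immune markers *PTPRC* and *CD3E* had 0 counts in every library, but *CD14*, another, had 659 and 494 in control and 252 and 248 in *LA*. *CD14*, *COL1A1* and *ACTA2* had more than 3 counts in every library. The 12 markers of other cell types summed to 38.8 to 61.0 CPM (counts scaled to the library total after TMM normalization) in control and 33.5 to 35.2 CPM in *LA* libraries. Their sums were 19.5 to 21.3 CPM in sgScr and 26.8 to 27.8 CPM in sg*FOS* libraries. The 6 epithelial markers summed to 10271 to 17189 CPM in control and 5513 to 10121 CPM in *LA* libraries. The epithelial sums were 4653 to 4963 CPM in sgScr and 5363 to 5532 CPM in sg*FOS* libraries.

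The *LA* libraries stood apart from all the others in a way that touches every result against them. Genes were listed that had at least 50 counts in each control library and at most 3 in each *LA* library. There were 12, of which *ADGRL2* was 1, and the annotation placed 9 on chromosome Y. Another was *MAGEA6*, a cancer-testis gene of the X chromosome which may share reads with a close copy, *MAGEA3*. The last was *TTTY15*, whose name had no match in the annotation, so its chromosome was not assigned and the 9 do not count it. None of the 12 was at or under 3 counts in all sgScr and sg*FOS* libraries, and all 12 had at least 50 counts in each of them. The other 11 genes stood at 13.3% to 241% of the control mean in sgScr (median 124%) and at 18.9% to 266% in sg*FOS* (median 117%). Differences of the *LA* libraries that come from the fusion and those that come from the cells used cannot be told apart here. The sgScr and sg*FOS* libraries resemble each other for these genes and differ from *LA*, although the labels give them the same fusion guides.

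**Figure D1:**
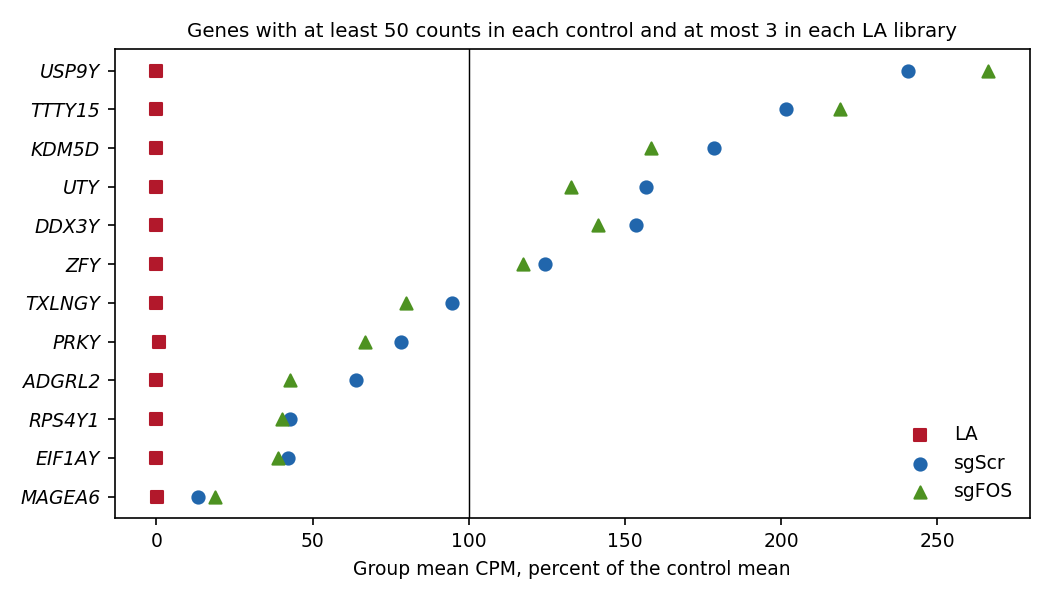
Group mean level in percent of the control mean (x axis; mean of CPM) for the 12 genes with at least 50 counts in each control and at most 3 in each *LA* library (y axis). Squares are *LA*, circles sgScr and triangles sg*FOS*; *LA* lies at or near 0 throughout, while *ADGRL2* lies at 64.0% in sgScr and 42.8% in sg*FOS*.

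Levels are given below as CPM scaled by the TMM method (trimmed mean of M-values) over all 9 libraries, which adjusts for depth and composition but not for gene length, so they compare libraries within a gene. *ADGRL2* was not counted once in *LA* cells. Controls gave 153 and 341 counts, against 0 and 0 in *LA*, 202, 197 and 158 in sgScr, and 83 and 106 in sg*FOS*. In CPM these were 9.61 and 20.1 in control, 9.70, 9.67 and 9.16 in sgScr, and 5.65 and 7.07 in sg*FOS*. The control libraries thus differed from each other more than the lower of them differed from any sgScr library, and sgScr values overlapped the control range. A count of 0 allows up to 3 counts in a library, which is 0.185 and 0.166 CPM in the *LA* libraries. Against that limit in each library, *ADGRL2* was at least 84.8-fold higher in control than in *LA* (at least 54.9-fold without control replicate 2), at least 54.3-fold higher in sgScr and at least 36.3-fold higher in sg*FOS*. These limits cover counting error only.

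*NTS* was nearly but not wholly missing from *LA* cells. It had 498 and 480 counts in control, 13 and 27 in *LA*, 178, 154 and 143 in sgScr, and 74 and 68 in sg*FOS*. The levels were 31.3 and 28.3 CPM in control, 0.80 and 1.49 in *LA*, 8.55, 7.56 and 8.29 in sgScr, and 5.04 and 4.54 in sg*FOS*. No groups overlapped: control was highest, then sgScr, then sg*FOS*, then *LA*. Group means were 29.8 ± 2.12 CPM in control (SD, n = 2), 1.15 ± 0.49 in *LA* (n = 2), 8.13 ± 0.51 in sgScr (n = 3) and 4.79 ± 0.35 in sg*FOS* (n = 2).

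*UPK1B* was also lowest in *LA*, with sgScr and sg*FOS* side by side. It had 708 and 820 counts in control, 24 and 48 in *LA*, 232, 206 and 170 in sgScr, and 151 and 163 in sg*FOS*. The levels were 44.5 and 48.3 CPM in control, 1.48 and 2.65 in *LA*, 11.1, 10.1 and 9.86 in sgScr, and 10.3 and 10.9 in sg*FOS*. Control lay above and *LA* below all other libraries, and the sg*FOS* values fell inside the sgScr range. The means were 46.4 ± 2.72 CPM in control (SD, n = 2), 2.06 ± 0.83 in *LA* (n = 2), 10.4 ± 0.68 in sgScr (n = 3) and 10.6 ± 0.42 in sg*FOS* (n = 2).

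**Figure D2:**
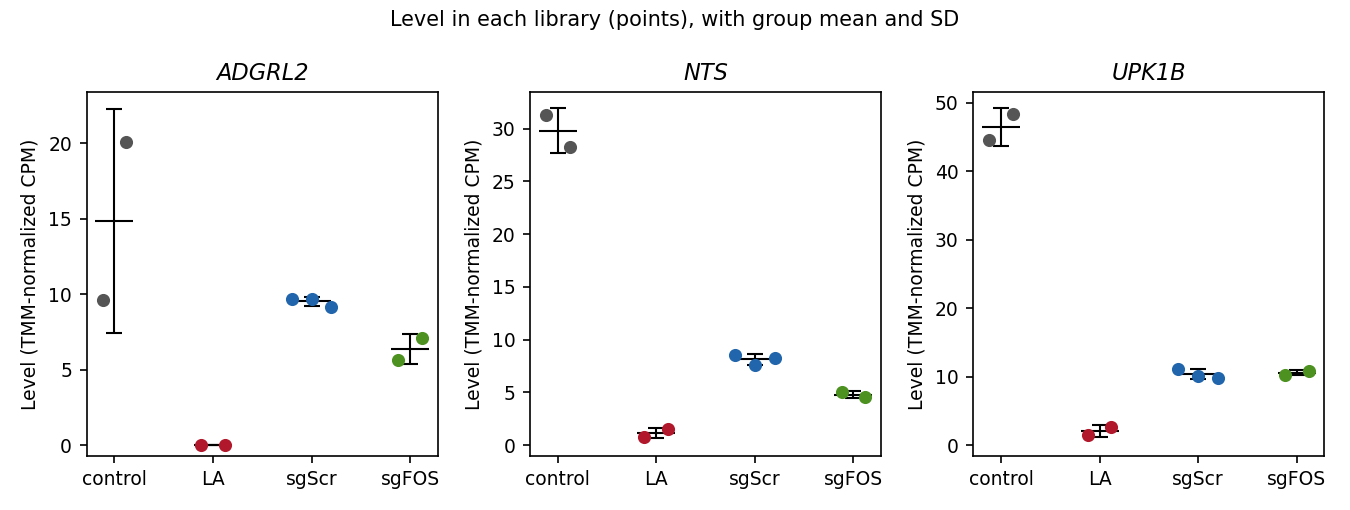
Level of *ADGRL2*, *NTS* and *UPK1B* in TMM-normalized CPM (y axis, from 0) in each library of the 4 groups (x axis). Points are libraries, horizontal marks the group mean and bars the SD; *LA* is lowest in each panel, and sgScr and sg*FOS* lie between *LA* and control for *NTS* and *UPK1B*.

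In *LA* against control, *NTS* differed by -4.72 on the log2 scale (SE 0.54), which is 26.4-fold lower, and *UPK1B* by -4.52 (SE 0.51). The *LA* mean was 3.84% of the control mean for *NTS* and 4.45% for *UPK1B*. Of 11942 genes averaging 50 counts or more over the control and *LA* libraries, the fitted change ranked *NTS* 13th from the lowest and *UPK1B* 14th. *ADGRL2* was among the genes below them, where genes with 0 counts in both *LA* libraries have no meaningful order. The neighbours in that order were *PLCB1* at -4.88 just before *NTS* and *CEACAM6* at -4.40 just after *UPK1B*. These values chose the genes, in a comparison where 9.94% of 14425 genes were called lower and 9.57% higher by edgeR's quasi-likelihood test at an adjusted p of 0.05.

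The sgScr libraries shared the low level only in part. Against control, *NTS* was 3.72-fold lower in sgScr, a log2 difference of -1.90 (SE 0.16), and *UPK1B* was 4.55-fold lower, a log2 difference of -2.19 (SE 0.15). *ADGRL2* differed by -0.67 (SE 0.32), and this value rests on the control library used: it was -0.057 without control replicate 2 and -1.09 without control replicate 1. The sgScr mean was 27.3% of the control mean for *NTS*, 22.3% for *UPK1B* and 64.0% for *ADGRL2*. Set against *LA*, sgScr was 6.79-fold higher for *NTS* (log2 2.76, SE 0.29) and 4.83-fold higher for *UPK1B* (log2 2.27, SE 0.27).

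The sg*FOS* libraries also lay between *LA* and control for *NTS* and *UPK1B*, and below both controls for *ADGRL2*. Against control, *NTS* was 6.37-fold lower (log2 -2.67, SE 0.25), *UPK1B* 4.49-fold lower (log2 -2.17, SE 0.23) and *ADGRL2* 2.39-fold lower (log2 -1.26, SE 0.43). The *ADGRL2* difference was -0.66 without control replicate 2 and -1.68 without control replicate 1. The sg*FOS* means were 16.1%, 22.8% and 42.8% of the control means in the same order. The comparisons with control share the control libraries that chose the genes, and that of sgScr with *LA* shares the *LA* libraries, so no test is given for any of them.

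**Figure D3:**
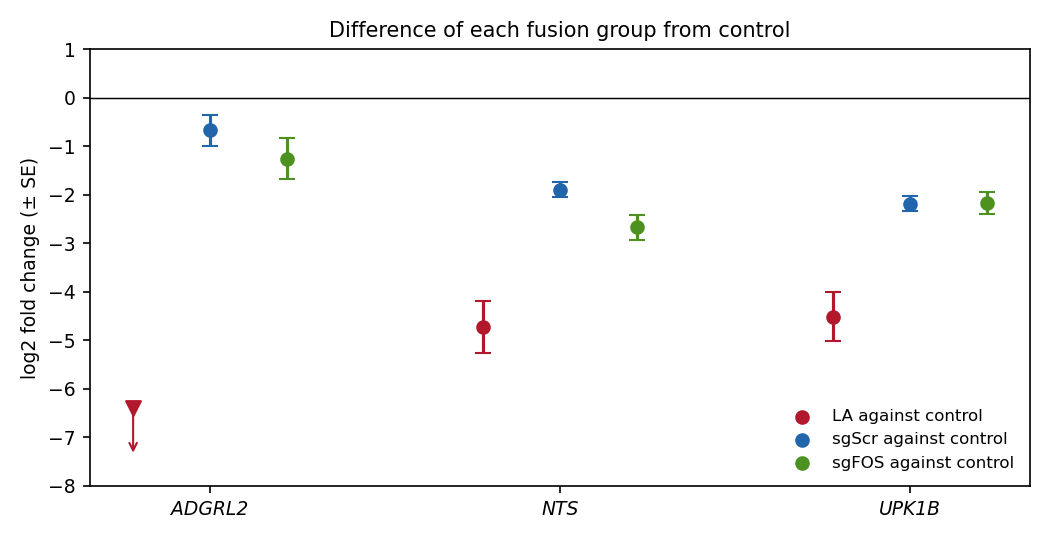
Fitted log2 fold change against control (y axis) of *ADGRL2*, *NTS* and *UPK1B* (x axis) in *LA*, sgScr and sg*FOS* cells; points are edgeR estimates and bars the SE. The triangle with an arrow is the upper limit for *ADGRL2* in *LA*, where both libraries had 0 counts; for *NTS* and *UPK1B* the sgScr and sg*FOS* points lie between -1.90 and -2.67 and the *LA* points below -4.

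Differences from control also followed transcript length across genes, and the part of this trend in the values above was not tested beyond a correction. Over 13966 genes, the Spearman correlation of the log2 difference with the length of the longest transcript was 0.523 in *LA* against control, with genes that are not independent of each other. Shorter transcripts were thus lower, and the longest transcripts were 1239 bases for *NTS*, 2028 for *UPK1B* and 8764 for *ADGRL2*. With each library corrected for length and GC content, *NTS* differed by -4.00 and *UPK1B* by -4.06 in *LA* against control. In sgScr against control the corrected values were -1.37 for *NTS*, -1.86 for *UPK1B* and -1.48 for *ADGRL2*. For sg*FOS* against control they were -2.01 for *NTS*, -1.80 for *UPK1B* and -1.96 for *ADGRL2*. The correction thus left *NTS* and *UPK1B* lower by less and made the *ADGRL2* differences larger.

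The comparison of sg*FOS* with sgScr used no library that chose the genes, so it was tested. It asks whether levels differ between the cells labelled as edited at *FOS* and those labelled with a scramble guide. *NTS* fell by 0.75 on the log2 scale (SE 0.16; 95% interval -1.07 to -0.43), with an adjusted p of 0.000375 by edgeR's quasi-likelihood test, and both sg*FOS* libraries lay below all 3 sgScr libraries. *ADGRL2* fell by 0.57 (SE 0.14; 95% interval -0.86 to -0.28), with an adjusted p of 0.00290 by the same edgeR test and again no overlap. *UPK1B* differed by 0.039 (SE 0.12; 95% interval -0.21 to 0.29), with an edgeR adjusted p of 0.862. In this comparison 10.5% of 14196 genes were called lower and 12.2% higher, so calls were frequent. The *ADGRL2* call rests on sg*FOS* replicate 1, without which the difference was -0.42 with an edgeR adjusted p of 0.119. The p-values rest on a small spread: edgeR's common coefficient of variation between libraries was 0.0296 here. It was 0.329 in *LA* against control and 0.213 in sgScr against control. With the spread shared over all 9 libraries in a single edgeR fit, neither *NTS* nor *ADGRL2* was called (adjusted p 0.99989 for each).

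**Figure D4:**
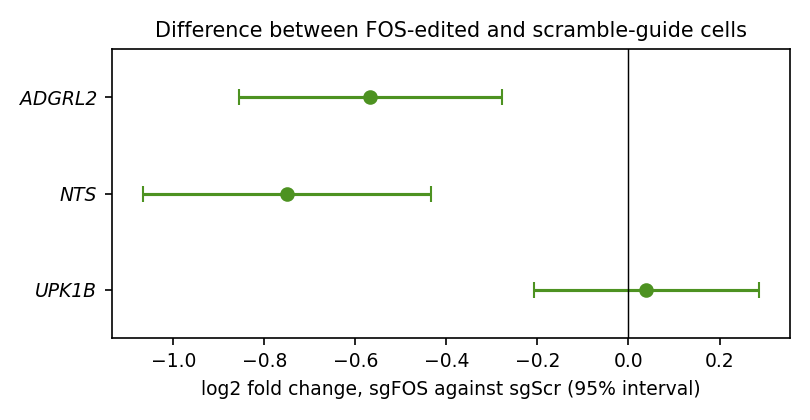
Log2 fold change in sg*FOS* against sgScr cells (x axis) for *ADGRL2*, *NTS* and *UPK1B* (y axis); points are edgeR estimates from 2 and 3 libraries and bars the 95% interval. The intervals of *ADGRL2* and *NTS* lie below 0, and that of *UPK1B* spans 0.

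Genes of the same systems, marker genes and chromosomal neighbours were read against the shares over all genes given above, 9.57% called higher and 9.94% lower in *LA* against control and 12.2% and 10.5% in sg*FOS* against sgScr. Of 21 calls for such genes in *LA* against control, 9 held with the length and GC correction, and only that of *CDH1*, E-cadherin, held in every fit that left out a library. *CDH1* was higher by 2.28 on the log2 scale. It was the only call among the 6 epithelial markers, whose median log2 difference was -0.66 and lowest -1.17. Of 37 calls in sg*FOS* against sgScr, 33 held with the correction and 21 in every fit that left out a library, 29 were made by DESeq2, and none in the fit of all 9 libraries. Of the genes named below as called in sg*FOS* against sgScr, DESeq2 did not call *ADGRL1*, *CPE*, *GAL*, *TSPAN1* or *KLF5*. *CD14*, a monocyte gene, was called lower in *LA* by 1.31, but was at -0.37 with the correction (edgeR adjusted p 0.402).

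Among latrophilins and their ligands, the system of *ADGRL2*, 13 other genes were in the table and most were close to silent. *ADGRL1*, latrophilin-1, had 957 and 395 counts in control and 345 and 647 in *LA*, with overlapping groups and a log2 difference of -0.59 (SE 0.46). *ADGRL3* had at most 7 counts and *ADGRL4* at most 1 in any library. Of the 5 genes tested in *LA* against control, 1 rose and none fell, with a median log2 difference of -0.056 against 0.044 over all genes tested. That gene was *NRXN3*, a neurexin, with 12 and 26 counts in control, 74 and 167 in *LA*, and 1 to 7 in sgScr and sg*FOS* libraries (log2 2.54, SE 0.65, edgeR adjusted p 0.00904). With the length and GC correction it was at 1.53 and no longer called (edgeR adjusted p 0.0966). In sg*FOS* against sgScr, 2 of 4 tested genes fell and none rose, beside 10.5% and 12.2% of all genes. *FLRT3*, a ligand of latrophilins, fell by 0.45 and *ADGRL1* by 0.26 on the log2 scale. Of 16 other adhesion receptors tested in that comparison, 4 rose and 4 fell. Of the other adhesion receptors, 3 of 17 tested rose in *LA* against control and none fell, beside 9.57% and 9.94% of all genes. They were *ADGRG1* (log2 1.84), *ADGRF4* (1.67) and the planar polarity receptor *CELSR1* (1.45), and *CELSR1* lost its call with the correction (0.64, edgeR adjusted p 0.126).

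The receptors *NTSR1* and *NTSR2* were near 0 counts, and not all convertases were counted. *NTSR1* had 0 to 5 counts and *NTSR2* 0 or 1 in any library, which at this depth is at or close to the limit of 3 counts. *SORT1*, the sortilin gene, had 495 and 619 counts in control and 834 and 1525 in *LA* (log2 0.96, SE 0.41, edgeR adjusted p 0.0975). *PCSK2*, a convertase of neuroendocrine cells, had 0 counts in every library, and *PCSK1*, another, had 0 in both controls, 8 and 15 in *LA* and 0 to 2 in sgScr and sg*FOS*. Of 11 tested genes of receptors, processing and degradation, 1 rose and 2 fell in *LA* against control, where 9.57% and 9.94% of all genes did, and the median log2 difference was 0.62. *PCSK5*, a proprotein convertase, rose by 2.31 (1.43 with the correction), while the endopeptidase *THOP1*, which cleaves neurotensin, fell by 1.31 and *ECE2* fell by 1.38. The peptidase gene *CPE* (log2 0.58), *FURIN* (0.32) and *ECE1* (0.25) rose in sg*FOS* against sgScr, and the peptidase *NLN* fell by 0.18.

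Of 15 tested neuropeptide, hormone and granin genes, 5 were called lower in *LA* against control and none higher, where 9.94% and 9.57% of all genes were, with a median log2 difference of -0.55. None of these 5 calls held with the length and GC correction. *NMU*, neuromedin U, fell by 3.06, from 75 and 36 counts in control to 10 and 4 in *LA*, and was at -1.80 with the correction (edgeR adjusted p 0.116). *VGF* fell by 2.22 and *UCN*, urocortin, by 2.12, against -1.24 and -0.41 corrected (edgeR adjusted p 0.137 and 0.660). The remaining calls were *GAL* and *NMB*, whose differences of -1.62 and -1.49 turned to 0.047 and 0.021 once length and GC content were corrected for. Between sg*FOS* and sgScr, 3 of 14 rose in sg*FOS*, *UCN2* (log2 1.10), *PTHLH* (0.99) and *GAL* (0.83), and *EDN1*, endothelin-1, fell by 0.32. Over all genes, 12.2% were called higher and 10.5% lower in that comparison.

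Among the other uroplakin genes, *UPK3B*, which encodes a uroplakin-3 protein, had 505 and 350 counts in control and 123 and 605 in *LA*, with overlapping groups. *UPK1A*, the closest relative of *UPK1B* among uroplakins, fell by 3.05 on the log2 scale in *LA* against control (SE 0.84, edgeR adjusted p 0.0137), from 44 and 35 counts to 6 and 4, and had 7 to 19 counts in sgScr and 4 and 8 in sg*FOS*. With the length and GC correction it was at -1.93 and not called (edgeR adjusted p 0.0997), and 1 of the 4 fits that left out a library called it. *UPK2* had 3 to 13 counts and *UPK3A* 0 in every library. Of 23 other tetraspanin genes tested, 1 fell in *LA* against control, *CD81* by 1.44, and none rose, where 9.94% and 9.57% of all genes did. Of 24 tested in sg*FOS* against sgScr, 7 rose and none fell, beside 12.2% and 10.5% of all genes, led by *TSPAN10* (log2 1.32), *CD82* (1.03) and *TSPAN1* (0.96). Of 9 urothelial differentiation genes tested, only *KLF5* was called in *LA* against control (log2 1.43). *KRT19* (log2 0.86), *GATA3* (0.63) and *KRT7* (0.27) rose in sg*FOS* against sgScr and *KLF5* fell by 0.15.

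Within 1 Mb of *NTS* lie 6 genes of the table, of which 4 were tested in *LA* against control. *SLC6A15* (log2 2.19, SE 0.46) and *RASSF9* (log2 1.91, SE 0.55) rose, and none fell, beside 9.57% and 9.94% of all genes. With the length and GC correction *RASSF9* was not called (1.33, edgeR adjusted p 0.128). *RASSF9* lies 37886 bp from *NTS* and had 43 and 42 counts in control and 116 and 233 in *LA*. Within 1 Mb of *UPK1B* lie 19 genes, of which 11 were tested. *GSK3B* rose by 1.40 and *COX17* fell by 1.88, close to the share of all genes called in each direction, and neither held with the correction (0.61 and -0.47, edgeR adjusted p 0.141 and 0.316). The nearest gene that was tested, *B4GALT4*, lies 6589 bp from *UPK1B* and had 2183 and 2817 counts in control and 2111 and 2717 in *LA* (log2 -0.15, SE 0.39). In sg*FOS* against sgScr, *B4GALT4* fell by 0.35 and *IGSF11*, on the other side of *UPK1B*, by 0.34, while near *NTS* *SLC6A15* fell by 0.40. Around *ADGRL2*, the table held only *LINC01361*, with 0 counts in every library, so its surroundings could not be read.

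Over the 9 libraries, log2 CPM of *NTS* and *UPK1B* correlated with a Pearson r of 0.982, *ADGRL2* and *NTS* with 0.873, and *ADGRL2* and *UPK1B* with 0.869. The libraries fall into 4 groups, and all 3 genes were chosen for the same pair, so these are descriptions. Of 11900 genes averaging 50 counts or more, those most alike to *ADGRL2* were *TXLNGY* (r = 0.992), *APEX1* (0.992) and *RPS4Y1* (0.987), of which *TXLNGY* and *RPS4Y1* are also among the 12 genes near 0 in *LA*. For *NTS* they were *COQ9* (0.990), *TKT* (0.987) and *NFS1* (0.985), and for *UPK1B* *GSTK1* (0.990), *SARS* (0.983) and *MAGEA6* (0.983). A high r does not mean a change of like size: *TKT*, transketolase, had 41441 and 40074 counts in control and 23609 and 29509 in *LA*. Nor does it mean the same order of libraries: *RPS4Y1* had 5689 and 3306 counts in control, where *ADGRL2* had 153 and 341.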

How the data were processed

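RNA-seq was done in 9 A549 libraries. The values are raw counts that the authors deposited, from stranded paired-end mRNA libraries aligned to hg19 with STAR 2.7.10b (the authors tested with DESeq2 1.26.0). The counting program, annotation and strand setting are not given in the sources used here, so overlapping and near-identical genes are uncertain. Groups came from the labels. Tests used edgeR 4.0.16 under R 4.3.3 (TMM, filterByExpr, two-sided quasi-likelihood test, each comparison on its own libraries, Benjamini-Hochberg adjustment over all genes tested, threshold 0.05), and figures were drawn with Python 3.11.15. Total counts ranged from 14507228 to 20456341, and a count of 0 was read as up to 3.

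The 3 genes, the lists and the alternatives were chosen with earlier results of these data known. Named were these genes, the 3 others most correlated with each (log2 CPM, prior count 2), genes within 1 Mb, list genes (all of the latrophilin, neurotensin and uroplakin lists, otherwise up to 3 called with the largest change per comparison) and *FOS* and *ALK*. Other genes were named after their values were seen: *MAGEA6*, *TTTY15*, *PLCB1*, *CEACAM6*, *EDN1*, the plotted genes near 0 in *LA* and all 5 peptide genes called lower there.

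Alternatives were DESeq2 1.42.0, its size factors, library size alone, no filter, a mean of 50 counts, all 9 libraries, a replicate block, a length and GC correction (loess, span 0.5) and leaving out each library. Positions came from GENCODE on GRCh37, where 22494 of 26362 distinct names matched directly and 1291 through an older symbol. Procedures were tested on simulated data with 200 changed genes.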

Additional observations from a re-analysis of the deposited data

How the results depend on the processing

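Of 179 values of *ADGRL2*, *NTS* and *UPK1B* under an alternative, 178 kept their sign. The exception was *UPK1B* in sg*FOS* against sgScr, which ranged from -0.0050 (without sg*FOS* replicate 2) to 0.095 when 1 library was left out. *NTS* and *ADGRL2* in that comparison ranged from -0.83 to -0.68 and from -0.74 to -0.42, and in the fit of all 9 libraries they were -0.75 and -0.57 with an adjusted p of 0.99989 (edgeR).

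In *LA* against control, leaving out a library gave -5.22 to -4.37 for *NTS*, -4.99 to -4.19 for *UPK1B* and a fold of at least 54.9 to 115 for control over *LA* in *ADGRL2*. The length and GC correction gave -4.00 and -4.06. In sgScr against control the ranges were -1.09 to -0.057 (*ADGRL2*), -1.99 to -1.81 (*NTS*) and -2.23 to -2.14 (*UPK1B*). The correction gave -1.48, -1.37 and -1.86, and library size alone -1.71 for *NTS* and -2.01 for *UPK1B*. In sg*FOS* against control they were -1.68 to -0.66, -2.78 to -2.58 and -2.22 to -2.12, with -1.96, -2.01 and -1.80 under the correction and -2.46 (*NTS*) and -1.96 (*UPK1B*) with library size alone. In sgScr against *LA* they were 2.41 to 3.31 for *NTS*, 1.93 to 2.78 for *UPK1B* and at least 51.5 to 57.5 for *ADGRL2*, or 51.0 with library size alone.

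Counts of genes called moved far more, and the cause was not tested. In *LA* against control 2814 were called, 6799 with all 9 libraries, 1519 with the replicate block, 1745 with the correction, and 253 (without *LA* replicate 2) to 5078 (without control replicate 2) with 1 library left out. In sgScr against control 6009 were called, 3480 with the block and 3 (without sgScr replicate 2) to 11715 (without control replicate 2). In sg*FOS* against control 1 was called by edgeR (5286 at an unadjusted p under 0.05), 3707 by DESeq2, 0 with library size alone, 1005 with no filter, 197 with a mean of 50 counts, 5824 with all 9 libraries, 3042 with the block, 2260 with the correction and 106 to 11450 with a library left out. In sgScr against *LA* 3327 were called, 1436 with all 9 libraries, 1230 with the block and 389 to 9926. In sg*FOS* against sgScr 3221 were called, 1962 by DESeq2, 0 with all 9 libraries (4812 at an unadjusted p under 0.05 in the fit of these 5 libraries) and 1916 to 3518. Calls are used above only in *LA* against control and sg*FOS* against sgScr, although counts of calls moved widely in these comparisons too.

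The labels do not say whether same-numbered libraries share more than a number. The correlation of their deviations was -0.27 for control with *LA* and between -0.067 and 0.055 elsewhere. The replicate block changed no call of the 3 genes in sg*FOS* against sgScr. Crossed numbers, tried after seeing the data, gave 3878 calls in *LA* against control. With 2 or 3 libraries a group the spread is poorly known, and where an arm was left with 1 library it was assumed to vary like the others.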
